A study of Rattus norvegicus with 36 samples.

Results

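The change in lung gene expression caused by crystalline silica was compared between an intermediate time, 30 days after exposure (D30), and a late time, 180 days after exposure (D180). The compared quantity was the difference between the changes, that is (DQ-12 minus vehicle at D180) minus (DQ-12 minus vehicle at D30), which is positive when the effect of DQ-12 was more positive at D180. DQ-12 is a quartz dust used as a reference crystalline silica. Per the study, it was ground again before use, which lowered its crystallinity and grain size and left small amounts of tungsten and cobalt. Female Sprague Dawley rats, 13 weeks old at exposure, received by intratracheal instillation 10 mg of DQ-12 per rat in sterile saline, or the saline vehicle alone. RNA of the accessory lung lobe was measured on Agilent single-color arrays, 1 for each rat. The 4 groups were vehicle D30, DQ-12 D30, vehicle D180, and DQ-12 D180, with 6 rats each, which makes 24 of the 36 arrays of the series. The other 12 arrays (D1) entered only the probe filter, the normalization, the choice of the probe for each gene, and the estimate of the spread. Vehicle and DQ-12 rats of a time point were of the same age, whereas D180 rats were older than D30 rats, so each time point had its own controls. No slide or scan date held arrays of both time points, so a shift between times within a treatment cannot be told apart from batch. The lobe holds all the cells of the lung, and in bulk tissue fewer cells of a type and less RNA per cell cannot be told apart.

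The groups had similar median array quality. Within groups, the median r between rats was 0.973 to 0.981, and 51.4 to 75.5% of the probes of an array were well above background. The lowest r was 0.955 in vehicle and 0.965 in DQ-12 rats at D180, against 0.976 and 0.978 at D30. The median SD over genes was 0.346 in vehicle D180 rats and 0.294 to 0.306 in the other groups of D30 and D180. Of 12 lung markers, 11 were well above background on all 24 arrays, including the surfactant genes Sftpc and Sftpb, and the exception was the macrophage receptor Marco (12 arrays). A list of 18 muscle genes averaged 8.28 to 8.65 log2 units in 5 vehicle D180 rats and 10.31 in replicate 5, and 37 genes instead of 33 were called when that rat was left out.

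Silica particles that reach the alveoli are taken up by macrophages, which they can damage without being degraded, so that particles, dying cells, and new phagocytes cycle in the tissue. The response involves chemokines that attract monocytes and neutrophils, the interleukin-1 family, and secreted acute-phase and matrix-degrading proteins. In silicosis it can last long after exposure has ended.

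Of 23721 genes tested, 251 were called at D30 (1.06%) and 871 at D180 (3.67%), where a call required an adjusted p under 0.05 (limma, Benjamini–Hochberg) together with a fold change (FC) of 2 or more. DQ-12 rats were higher for 219 (0.923%) and lower for 32 (0.135%) of the genes called at D30, and higher for 686 (2.89%) and lower for 185 (0.78%) of those called at D180. A gene called at a single time point is not thereby shown to differ between them, so the difference itself was tested. It was called for 33 genes (0.139%), of which 29 were more positive at D180 (0.122%) and 4 more negative (0.0169%). From this test, genes were placed in 3 classes. A gene progressed if its difference was called and lay in the direction of a called change at D180 (29 genes). It persisted if it was called at both time points in the same direction and the 95% interval of its difference lay within 2-fold (59 genes). It resolved if it was called at D30 and its difference was significant in the opposite direction (2 genes). The other 837 of the 927 genes called at D30 or D180 remained undetermined. Without a fold threshold the difference was significant for 59 genes (0.249%), 40 of them more positive (0.169%) and 19 more negative (0.0801%) at D180, and 2811 genes (11.9%) had an unadjusted p under 0.05, 1347 of them more positive (5.68%).

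The calls of the difference were close to the limit of the design. With the 24 arrays of D30 and D180 fitted without D1, no gene was called (limma), 1 gene (Ptcd3) had an adjusted p under 0.05, 2345 genes had an unadjusted p under 0.05, and the 33 genes kept their sign with adjusted p between 0.0564 and 0.159. With scan date as a fixed block, 14 genes were called, 10 of them among the 33.

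**Figure D1:**
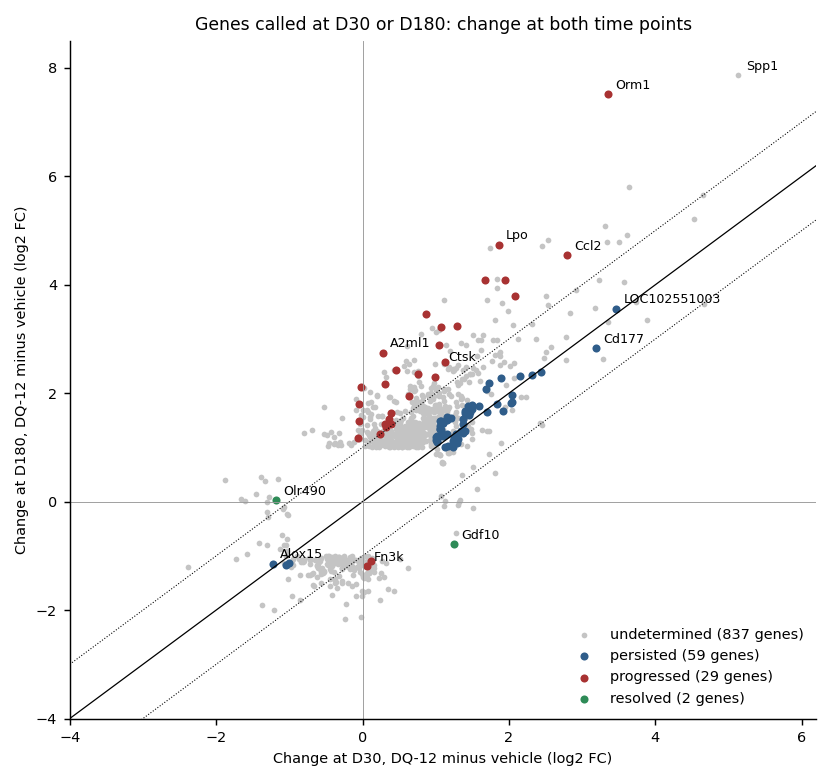
Change at D30 (horizontal axis) and at D180 (vertical axis), as log2 FC of DQ-12 against vehicle, for the 927 genes called at either time point, colored by class. The solid line marks equal changes and the dotted lines a 2-fold difference between them. The 27 progressed genes on the higher side lie above the upper dotted line, with Orm1 at 3.35 and 7.51, and the persisted genes lie between the dotted lines.

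Orm1 and Lpo encode secreted proteins, and both progressed. Orm1 encodes orosomucoid 1 (alpha-1-acid glycoprotein), an acute-phase plasma protein. Its lowest, median, and highest log2 signals were 2.81, 4.05 and 4.60 in vehicle rats and 6.36, 7.17 and 7.82 in DQ-12 rats at D30. At D180 they were 2.45, 3.93 and 6.54 in vehicle rats and 9.73, 12.01 and 12.65 in DQ-12 rats. DQ-12 and vehicle rats were fully separated at both times, and every DQ-12 rat at D180 lay above every DQ-12 rat at D30. The log2 FC of Orm1 was 3.35 at D30 and 7.51 at D180, a difference of 4.16 ± 0.74 (SE, n = 6 per group; limma, adjusted p = 0.0076). None of the vehicle D30 arrays was well above background for Orm1, which gives a FC of at least 8.66 at D30, so the fitted difference has no measured size. Over the 4 pairs of scan dates that held both treatments, the difference of Orm1 ranged from 2.10 to 7.18, with as few as 1 array of a group on a date.

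Lpo, which encodes lactoperoxidase, a secreted peroxidase of airway fluid, had median log2 signals of 7.05 in vehicle and 8.75 in DQ-12 rats at D30, and of 7.26 and 12.33 at D180. The DQ-12 rats spanned 8.09 to 9.87 at D30 and 10.05 to 12.53 at D180 without overlap, while the vehicle rats of both ages overlapped. The difference was 2.88 ± 0.48 (SE, adjusted p = 0.00455, limma). Chia, the acidic mammalian chitinase secreted by epithelium, was called at both times. Its DQ-12 rats ranged from 15.20 to 16.44 at D30 and from 15.98 to 17.88 at D180, which overlapped, and vehicle rats from 12.73 to 14.12. The log2 FC of Chia went from 2.09 to 3.79 (difference 1.70 ± 0.38, adjusted p = 0.0387).

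Il1rn had the single significant difference among the 25 genes of the interleukin-1, interleukin-6, TNF, and interleukin-10 family list. Il1rn encodes the secreted antagonist of the interleukin-1 receptor. Its lowest, median, and highest signals were 10.48, 11.07 and 11.18 in vehicle and 11.68, 12.02 and 12.50 in DQ-12 rats at D30, against 10.41, 10.96 and 11.14 and 13.16, 13.36 and 13.92 at D180. The vehicle rats of both time points occupied the same range, and the DQ-12 rats stood above them at D30 and above the DQ-12 D30 rats at D180. The log2 FC was 1.13 at D30 and 2.57 at D180, with a difference of 1.45 ± 0.22 (adjusted p = 0.00225) and values of 0.77 to 1.90 over the pairs of scan dates. Il18bp, which binds and neutralizes interleukin-18, did not follow a rise at D30. The log2 FC of Il18bp was -0.06 at D30 and 1.17 at D180 (difference 1.24 ± 0.22, adjusted p = 0.0076), the DQ-12 D180 rats at 8.90 to 9.58 lying above all rats of the other groups, which reached 8.70.

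Ccl2, the main attractant of monocytes, was called at both times. Its lowest, median, and highest signals were 11.10, 11.70 and 12.67 in DQ-12 rats at D30 and 12.82, 13.18 and 14.23 at D180, and the 12 vehicle rats lay between 8.31 and 9.57. No DQ-12 rat of D30 reached the lowest of D180. The log2 FC rose from 2.80 to 4.54, a 3.36-fold difference (adjusted p = 0.0179). For Ccr1, a receptor of several CC chemokines, the log2 FC was 0.39 at D30 and 1.44 at D180 (adjusted p of the difference = 0.0389). Here the vehicle rats contributed more than the DQ-12 rats, since the mean signal changed by -0.62 from D30 to D180 in vehicle rats and by 0.43 in DQ-12 rats.

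Ctsk, Pla2g7, Kcnn4, Il4i1, and Dusp2 encode proteins of varied function and also progressed. Ctsk encodes cathepsin K, a collagen-degrading protease known from osteoclasts. Signals of Ctsk were 8.04, 8.51 and 8.84 (lowest, median, highest) in vehicle and 9.14, 9.43 and 10.09 in DQ-12 rats at D30, and 8.55, 8.98 and 9.27 and 11.20, 11.92 and 12.72 at D180. The DQ-12 D180 rats lay more than 1 log2 unit above every other rat. The difference was 1.84 ± 0.34, or 3.59-fold (adjusted p = 0.00854). Pla2g7 encodes a secreted phospholipase that inactivates platelet-activating factor and oxidized phospholipids. Its log2 FC was 0.76 at D30, under the fold threshold, and 2.36 at D180 (difference 1.60 ± 0.27, adjusted p = 0.00455). Kcnn4, a calcium-activated potassium channel, went from 0.64 to 1.96 (adjusted p = 0.0076), with DQ-12 rats at 9.04 to 9.85 at D30 and 10.07 to 11.11 at D180. Il4i1, a secreted L-amino acid oxidase, and Dusp2, a phosphatase of MAP kinases, had log2 FCs of 0.31 and 0.39 at D30 and of 1.42 and 1.64 at D180 (adjusted p of the difference 0.0478 and 0.0454). For Il4i1 the mean signal changed by -0.70 in vehicle rats, whose groups did not overlap, and by 0.41 in DQ-12 rats (adjusted p of these shifts 0.00921 and 0.109, limma).

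Mt3 encodes a metallothionein, a metal-binding protein, and Ubd a ubiquitin-like modifier that tumor necrosis factor and interferon-gamma induce. The lowest, median, and highest signals of Mt3 in DQ-12 rats were 5.50, 6.12 and 6.96 at D30 and 7.23, 8.05 and 8.77 at D180, with the 12 vehicle rats at 4.32 to 5.12. Those of Ubd were 10.04, 11.13 and 11.53 and 11.62, 13.38 and 13.79, with vehicle rats at 8.98 to 10.48. The DQ-12 rats of the different times did not overlap for either gene, although at D30 the DQ-12 and vehicle rats overlapped for Ubd. The differences were 1.95 ± 0.34 for Mt3 (adjusted p = 0.00561) and 2.15 ± 0.43 for Ubd (adjusted p = 0.0225).

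Among complement genes, C1s, the serine protease of the first classical-pathway complex, progressed from 0.32 to 1.37 (difference 1.05 ± 0.22, adjusted p = 0.0302, limma). Over the pairs of scan dates the difference of C1s ranged from 0.21 to 0.95, under the fold threshold. Of the remaining progressed genes that were measured in all groups, Gjb2 (connexin 26) went from 0.36 to 1.53, Galnt5 (an enzyme of O-glycosylation) from 0.45 to 2.44, Sapcd2 from 0.99 to 2.30, and Phyhd1 from 0.24 to 1.25. Their adjusted p ranged from 0.00854 to 0.0439. For Galnt5 the mean signal changed by -0.93 in vehicle rats and by 1.05 in DQ-12 rats, and 3 vehicle D180 arrays were well above background. Kif22, a kinesin that binds mitotic chromosomes, differed by 1.86, but the shift was -1.52 in vehicle rats (median signal 5.91 at D30 and 4.16 at D180) and 0.34 in DQ-12 rats. For Kif22 the group that stood apart was the vehicle D180 group.

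**Figure D2:**
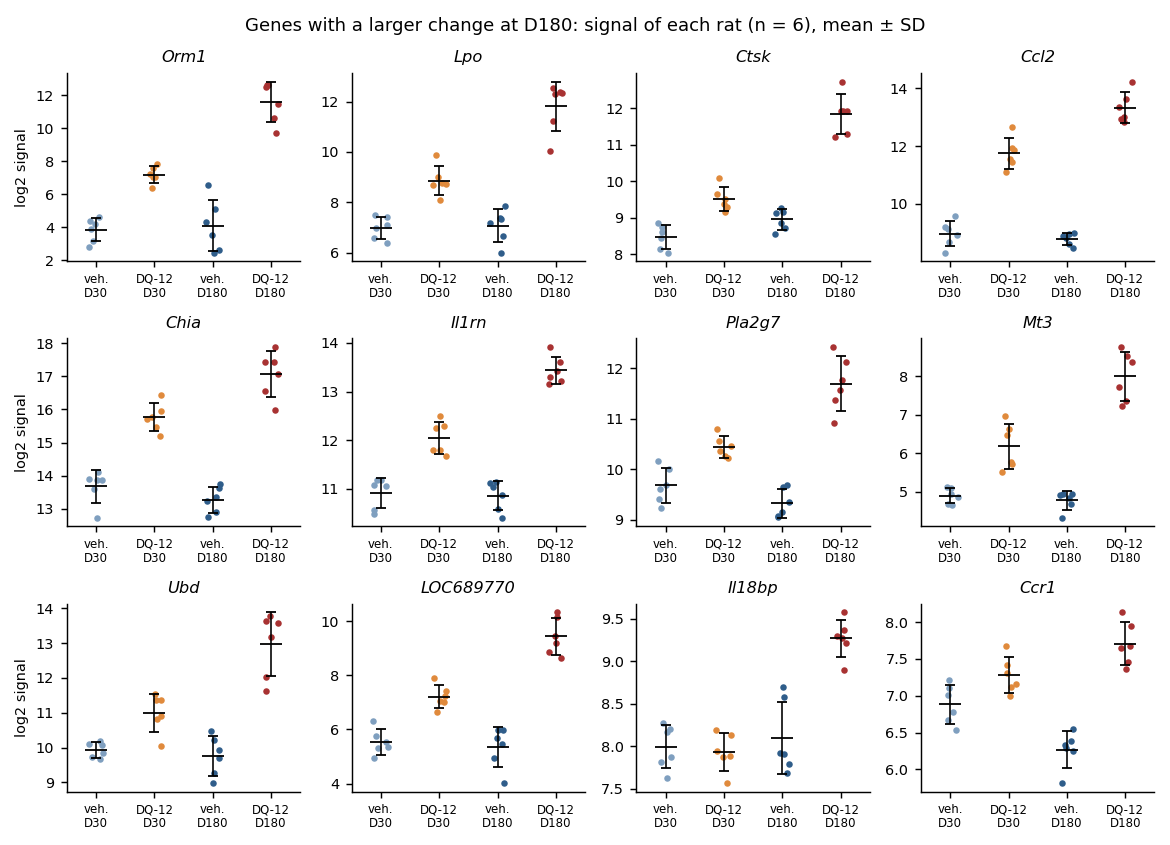
Log2 signal (vertical axes, a scale of its own for each gene) of each of the 6 rats in the 4 groups for 12 progressed genes, with mean and SD. In 10 panels every DQ-12 D180 rat lies above every DQ-12 D30 rat. The exceptions are Chia and Ccr1, and for Ccr1 the mean of the vehicle rats also changes, by -0.62.

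Clec2d2l1 and Clec2d2l2 (LOC689757 and LOC689770 on the array, renamed here through their RefSeq accessions) encode C-type lectins of the same family. Probes of these genes cover nearly the same stretch, as the aligned sequences show, with the differing bases in capitals.
LOC689757 (Clec2d2l1): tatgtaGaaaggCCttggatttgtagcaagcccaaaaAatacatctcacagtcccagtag
LOC689770 (Clec2d2l2): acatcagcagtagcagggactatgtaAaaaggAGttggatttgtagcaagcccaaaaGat
Over the 40 aligned bases, 36 were identical and 4 differed, so cross-hybridization between these genes is possible and was not tested. Clec2d2l1 had lowest, median, and highest signals of 4.02, 4.70 and 5.64 in vehicle and 6.26, 6.66 and 7.51 in DQ-12 rats at D30, and of 4.26, 4.84 and 5.42 and 8.17, 8.84 and 9.84 at D180. Its difference was 2.13 ± 0.40 (adjusted p = 0.00924). For Clec2d2l2, which was measured with another, brighter probe, the log2 FC went from 1.67 to 4.09 (difference 2.42 ± 0.41, adjusted p = 0.00455), and the probe printed above gave a difference of 1.81. Groups of DQ-12 rats at D30 and D180 did not overlap for either lectin.

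Among the 27 progressed genes with a higher signal, DQ-12 and vehicle rats were separated without overlap for 11 at D30 and for 25 at D180. Over all genes tested such a separation was found for 2.39% at D30 and 7.39% at D180, and nothing is read from the D180 count, since these genes were chosen by their call at D180. Of the 29 progressed genes, 6 had at least 1 group without an array well above background, so that their FC is a bound or was not measured. Orm1 is one of them. LOC100911842, which had no RefSeq match, was at least 1.15-fold higher in DQ-12 rats at D30 and at least 5.60-fold higher at D180. A2ml1, a protease inhibitor related to alpha-2-macroglobulin, was not well above background in any rat at D30 and was well above it in 1 vehicle rat and 4 DQ-12 rats at D180, where the lowest, median, and highest DQ-12 signals were 3.44, 5.25 and 6.53. Clec6a-ps1, LOC108352587, and Cstdc2 (LOC689081) were not well above background in any rat at D30 or in any vehicle rat at D180, and exceeded it in 1, 4, and 1 DQ-12 rats at D180, respectively. In the DQ-12 D180 rats they reached at least 1.30-fold, 1.34-fold, and 1.03-fold the vehicle level. A second, equally dim probe of Cstdc2 gave a difference of -0.22.

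Of the 10 progressed genes that were called at both time points, the promoters of 4 of those with a motif match are shown, as the 250 bases before the RefSeq start on GRCr8, with matches to searched motifs in capitals. The motifs were AP-1 (TGANTCA), STAT (TTCNNNGAA), NF-kB (GGG, any 2 bases, then TTTCC), the interferon-stimulated response element (GAAA, any 2 bases, then GAAA), C/EBP (TTGCNNAA), and the TATA box (TATAAA), on both strands.
Orm1, chr5:81788259-81788508, plus strand: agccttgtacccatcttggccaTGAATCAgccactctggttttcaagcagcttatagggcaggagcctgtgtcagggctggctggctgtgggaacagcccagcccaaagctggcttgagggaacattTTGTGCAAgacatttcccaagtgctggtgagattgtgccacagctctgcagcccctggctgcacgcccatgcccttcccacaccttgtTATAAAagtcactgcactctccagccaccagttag
Lpo, chr10:73123457-73123706, minus strand: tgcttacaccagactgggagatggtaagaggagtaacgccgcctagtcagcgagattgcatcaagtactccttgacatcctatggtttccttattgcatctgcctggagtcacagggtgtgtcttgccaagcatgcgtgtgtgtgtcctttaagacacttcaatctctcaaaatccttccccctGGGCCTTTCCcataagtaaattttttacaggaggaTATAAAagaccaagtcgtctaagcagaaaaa
Il1rn, chr3:27520072-27520321, plus strand: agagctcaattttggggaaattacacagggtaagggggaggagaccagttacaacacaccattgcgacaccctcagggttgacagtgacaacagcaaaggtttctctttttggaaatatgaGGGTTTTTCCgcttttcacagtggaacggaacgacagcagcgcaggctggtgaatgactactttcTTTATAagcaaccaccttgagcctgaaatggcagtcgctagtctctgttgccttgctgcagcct
Ctsk, chr2:185747298-185747547, plus strand: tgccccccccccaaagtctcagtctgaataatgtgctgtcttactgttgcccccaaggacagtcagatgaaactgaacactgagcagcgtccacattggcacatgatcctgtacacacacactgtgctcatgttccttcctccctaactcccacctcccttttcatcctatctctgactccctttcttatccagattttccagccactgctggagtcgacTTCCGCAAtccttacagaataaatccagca
Capitals mark AP-1, C/EBP, and TATA matches in Orm1, which begin 228, 123, and 35 bases before the start. They mark an NF-kB and a TATA match in Lpo (66 and 31 bases) and in Il1rn (129 and 64 bases), and a C/EBP match in Ctsk (30 bases). The TATA letters of Il1rn and the C/EBP letters of Orm1 and Ctsk are on the opposite strand. Of the 27 progressed genes that were higher at D180, 21 had a promoter in the table. NF-kB letters were found in 3 of them (Il1rn, Lpo, and Ubd; 14.3%) and in 1.28% of all 27457 promoters. The shares were 14.3% against 6.36% for AP-1, 19% against 9.2% for C/EBP, and 28.6% against 13.1% for TATA, while STAT and interferon-response letters were found in none of the 21 and in 7.52% and 3.29% of all promoters. No 2 of the matches overlapped in the printed sequences. Clec2d2l1 and Clec2d2l2, also called at both time points, had no match. A match describes the letters only, and no binding was measured.

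The 4 genes with a called and more negative difference included 2 that progressed downward, Fn3k and Lrrn3. Fn3k encodes fructosamine-3-kinase, which repairs glycated proteins. Its lowest, median, and highest signals were 7.34, 7.70 and 8.30 in vehicle and 7.45, 7.84 and 8.18 in DQ-12 rats at D30, and 7.83, 8.12 and 8.64 and 6.80, 6.97 and 7.13 at D180. The D30 groups overlapped fully, whereas the DQ-12 D180 rats lay below all others. The log2 FC was 0.06 at D30 and -1.19 at D180 (difference -1.25 ± 0.23, adjusted p = 0.00854). Lrrn3, a leucine-rich repeat membrane protein, went from 0.12 to -1.10 (adjusted p = 0.0121). Postn, which encodes the matrix protein periostin, had the same pattern just under the fold threshold at D180 (0.02 and -0.99, difference -1.01 ± 0.22, adjusted p = 0.0354), with DQ-12 D180 rats at 8.60 to 9.43 and all other rats at 9.84 or above. Over the pairs of scan dates the differences ranged from -1.0 to -0.59 for Fn3k, from -0.72 to -0.43 for Lrrn3, and from -1.06 to -0.43 for Postn, and none of the 3 was called with scan date as a block (adjusted p of 0.169, 0.31, and 0.314).

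Fam20c, a kinase of secreted proteins, was the remaining called gene that met no class, since its log2 FC was -0.35 at D30 and 0.97 at D180 (difference 1.32 ± 0.29, adjusted p = 0.0348). Below a 2-fold difference, 26 further genes had a significant difference, 11 more positive and 15 more negative. Those given here were chosen after their values were seen. The more positive included Irf5, a transcription factor of inflammatory macrophages (0.49 at D30 and 1.38 at D180), and Plek, a substrate of protein kinase C in leukocytes (-0.10 and 0.83). Among the more negative, Pde5a and Gucy1b1, a phosphodiesterase and a guanylate cyclase subunit of smooth muscle and pericytes, had log2 FCs of -0.20 and -0.31 at D30 and of -1.0 and -1.11 at D180. Agtr1a, the angiotensin II receptor, and Ddr2, a collagen receptor of fibroblasts, went from -0.11 and -0.08 to -0.94 and -0.70.

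To see which animals carried each difference, the shift from D30 to D180 was computed within each treatment. Since D30 and D180 arrays shared no slide or scan date, age and batch cannot be told apart in these shifts. For 28 of the 33 genes the DQ-12 rats shifted more than the vehicle rats, and for 21 the DQ-12 rats of D180 lay beyond those of D30 without overlap, against 8.6% of all genes tested. The shift was significant in DQ-12 rats for 29 of the 33 genes and in vehicle rats for 7. The vehicle shift exceeded 2-fold for 3 genes, Kif22 (-1.52), Olr490 (-1.40), and Gdf10 (1.06). Of all 23721 genes tested, 843 had a significant shift of 2-fold or more in DQ-12 rats and 647 in vehicle rats. The counts of 29 and 7 had no fold threshold, so they are not set against these. The shifts are components of the tested difference and add no separate evidence for it. In each of the 4 pairs of scan dates that held both treatments, all 33 genes kept their sign. In the pair with at least 2 arrays of every group, the 29 more positive genes had a median difference of 1.54 against 1.70 over all arrays. Nothing is read from these signs and medians, since the 33 genes were chosen by their difference on the same arrays.

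**Figure D3:**
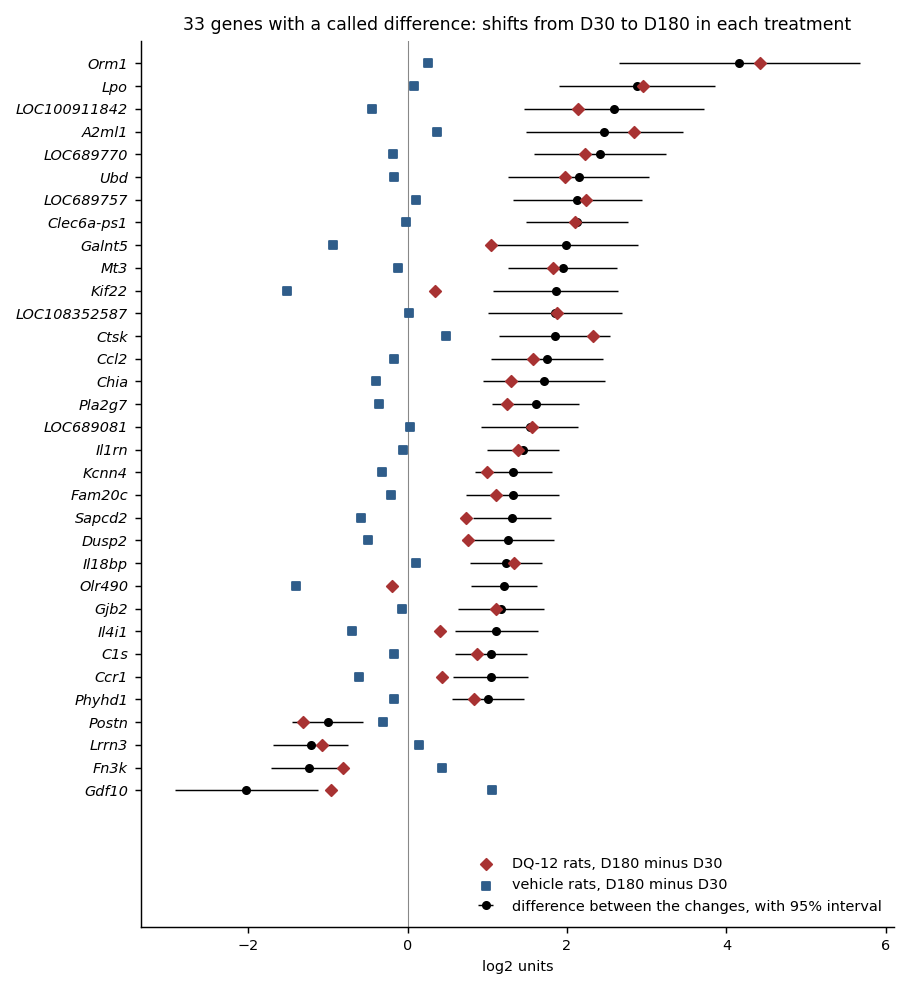
Shift of the mean log2 signal from D30 to D180 in DQ-12 rats (diamonds) and in vehicle rats (squares), and the difference between them with its 95% interval (circles), for the 33 genes called in the difference (6 rats per group). The vehicle shifts beyond 2-fold are those of Kif22 (-1.52), Olr490 (-1.40), and Gdf10 (1.06).

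Persistence was shown for 59 genes (0.249% of those tested), 56 higher and 3 lower in DQ-12 rats at both times, with the DQ-12 and vehicle rats separated at both times for 45 of them, where 2.39% of all genes were separated at D30 and 7.39% at D180. Nothing is read from that count, since the 59 genes were chosen by their calls at both times. LOC102551003 had the largest mean change, with log2 FCs of 3.47 and 3.56 and a difference of 0.09 (95% interval -0.71 to 0.89). A second, dim probe of LOC102551003 (mean log2 signal 2.73) gave log2 FCs of 0.44 at D30 and 0.01 at D180. Cd177, a surface glycoprotein of neutrophils, had the next largest mean change. Its lowest, median, and highest signals were 8.56, 9.44 and 9.67 in vehicle and 12.05, 12.41 and 13.12 in DQ-12 rats at D30, and 8.95, 10.18 and 10.39 and 12.31, 12.75 and 13.04 at D180. The DQ-12 rats of both times occupied nearly the same range, and the vehicle rats shifted by 0.64. The difference was -0.36 (interval -0.97 to 0.26).

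Of the other persisting genes with the largest changes, Gpr84, a fatty acid receptor of phagocytes, had log2 FCs of 2.43 and 2.38 (interval of the difference -0.84 to 0.74). Only 1 vehicle array at D30 and 4 at D180 were well above background for Gpr84, so its FC at D30 rests on vehicle values near the floor. Siglec1 (sialoadhesin, a macrophage receptor) had 2.04 and 1.96 (interval -0.77 to 0.63). Il1r2, the decoy receptor of interleukin-1, had 2.15 and 2.32 (interval -0.53 to 0.87). Chi3l1, a chitinase-like protein without enzyme activity, had 1.89 and 2.29, with an interval of -0.13 to 0.93 that nearly reached the 2-fold limit. Fcrlb, an Fc receptor-like protein, had 2.32 and 2.33, and Slamf8, a membrane protein of activated myeloid cells, 1.73 and 2.20. Persistence also included C3, the central complement component (2.04 and 1.83, interval -0.67 to 0.24), Hp, the hemoglobin-binding plasma protein haptoglobin (1.05 and 1.5), and the scavenger receptor Msr1 (1.37 and 1.52). On the lower side, Alox15, a lipoxygenase of eosinophils and macrophages, had -1.22 and -1.14. The interleukin-1 decoy receptor was thus classed as persisted, within 2-fold, and the interleukin-1 receptor antagonist as progressed. Whether these genes differ from each other was not tested.

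**Figure D4:**
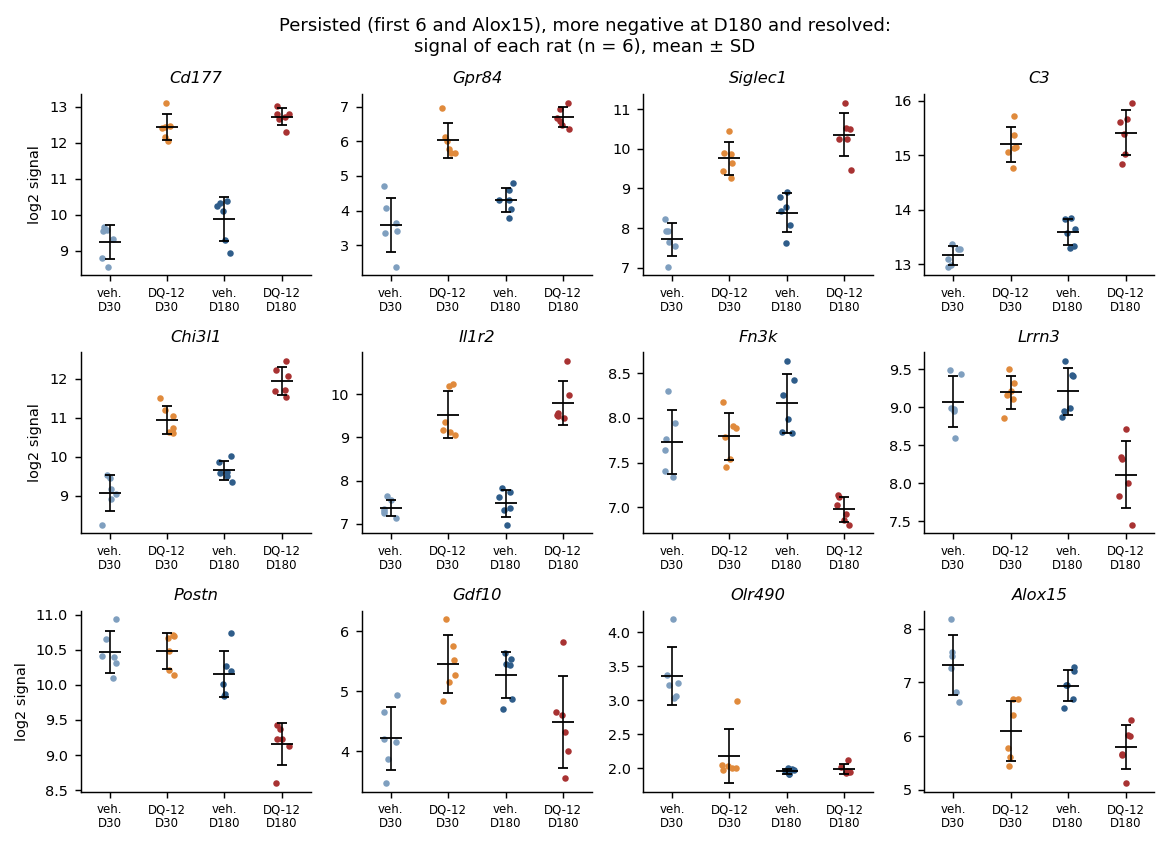
Log2 signal of each of the 6 rats in the 4 groups, with mean and SD, for 7 persisted genes, 3 genes with a more negative change at D180 (Fn3k, Lrrn3, and Postn), and the 2 resolved genes (Gdf10 and Olr490). Each panel has a vertical scale of its own. The DQ-12 rats of both times lie on 1 side of all their vehicle rats for the persisted genes, except Alox15, whose groups overlap at D30, and in Olr490 the vehicle D30 rats stand apart from the other 3 groups.

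Resolution was called for 2 genes (0.00843%), and in both the vehicle rats shifted more than the DQ-12 rats. Gdf10, a secreted factor of the transforming growth factor-beta family, had lowest, median, and highest signals of 3.47, 4.18 and 4.94 in vehicle and 4.84, 5.40 and 6.21 in DQ-12 rats at D30. At D180 they were 4.70, 5.45 and 5.64 and 3.55, 4.46 and 5.82. The groups overlapped at both times, and 2, 6, 6, and 3 arrays were well above background in the same order of groups. The log2 FC was 1.24 at D30 and -0.78 at D180, which was not called (difference -2.03 ± 0.44, adjusted p = 0.0348). Olr490, an olfactory receptor gene (Or8k16b in RefSeq), was not well above background on any of the 24 arrays, so no level was measured, and its log2 values near the floor (medians of 3.24, 2.02, 1.97, and 1.95) differed in the vehicle D30 rats alone. With median intensities or with normexp background correction, no gene resolved.

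Of the 251 genes called at D30, 195 were called again at D180 (0.822% of all genes tested), all in the same direction, and 150 of these had a larger change at D180. Over the 195 genes the median size of the change increased from 1.47 to 1.93. Nothing is read from the count of 150 or from these medians, since the genes were chosen by their calls at both times. The share of larger changes over all genes was not computed. By the test of the difference, 59 of the 195 persisted and 10 progressed. The other 56 genes passed at D30 only, and their median size went from 1.2 to 0.632. Since these 56 were picked for their value at D30, a smaller value at D180 supports nothing by itself, and the difference was called for 2 of them. The change at D180 had the same sign as at D30 for 41, and the interval of the difference included 0 for 30. Conversely, 676 genes passed at D180 only, 495 of them higher in DQ-12 rats, and the difference was significant for 31 of them, while its interval included 0 for 292.

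Several of the largest changes were undetermined, with wide intervals of the difference. Spp1, which encodes osteopontin, an adhesive glycoprotein made by macrophages, had the largest change at both times, with log2 FCs of 5.14 and 7.87. Its signals were 4.27, 5.07 and 7.72 in vehicle and 9.42, 10.63 and 11.54 in DQ-12 rats at D30, and 4.20, 4.66 and 6.86 and 12, 13.03 and 13.93 at D180. The DQ-12 rats of the different times did not overlap, but the vehicle D30 rats spread over more than 3 log2 units, and the difference of 2.73 (interval 1.15 to 4.31) had an adjusted p of 0.117. Mmp12, the macrophage elastase, went from 3.61 to 4.91 (adjusted p = 0.175), Ccl7, another monocyte attractant, from 3.34 to 4.80 (adjusted p = 0.25), and Slc26a4, the epithelial anion exchanger pendrin, from 4.52 to 5.22 (adjusted p = 0.591). The median half-width of the 95% interval was 0.574 over all genes and 0.805 over the genes called at D30 or D180.

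Gene lists were drawn from general knowledge, but lists and members were chosen with earlier results of these data known, so their counts are descriptive only. They are given with their medians beside those of all genes tested. Over all genes tested, the median log2 FC was -0.02 at D30 and -0.03 at D180, 47.3% of the differences were positive, and 11.9% had an unadjusted p under 0.05 (limma). Calls over all genes also increased, from 1.06% at D30 to 3.67% at D180, so that a larger count at D180 is not particular to a list. The median of the differences was 0.67 for the cell cycle list. Its median log2 FC was 0.64 at D30 and 1.35 at D180, and 6 of 24 genes were called at D30 against 17 at D180, all higher. The difference was significant for 1, Top2a, the topoisomerase of dividing cells (0.53 and 1.51, adjusted p = 0.0302), and 13 had an unadjusted p under 0.05. Mki67, a proliferation marker, had 0.57 and 1.22 (adjusted p = 0.164), and the replication helicase subunit Mcm5 persisted at 1.11 and 1.21.

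The CC chemokine and receptor list went from a median of 0.39 to 0.95, with 8 of 19 genes called at D30 and 9 at D180. Besides Ccl2 and Ccr1, which progressed, Ccl9 and Ccl22 persisted (1.47 and 1.66, 1.59 and 1.76). Ccl1 had log2 FCs of 4.65 and 5.66 with no vehicle array well above background, which gives FCs of at least 13.3 at D30 and 26.1 at D180. The neutrophil list had medians of 0.48 and 0.38, with 7 and 9 of 24 genes called and 0 significant differences (limma; 2 with an unadjusted p under 0.05), while the median of its differences was 0.19 and 66.7% of them were positive. Of that list Cxcl3, a neutrophil attractant, persisted (1.28 and 1.23), and the calprotectin subunit S100a9 had 1.93 and 2.57 (adjusted p = 0.498). That the lists of monocyte and neutrophil attractants differ from each other was not tested.

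In the list of osteoclast-like macrophage genes, 9 of 23 were called at D30 and 11 at D180. Apart from Ctsk, none had a significant difference. Gpnmb, a glycoprotein of lipid-laden macrophages, had 1.5 and 2.36 (adjusted p = 0.146, limma), whereas Trem2, a lipid-sensing receptor, had 3.17 and 3.58, and the fatty acid-binding protein Fabp5 persisted (1.23 and 1.01). A second bright probe of Fabp5 (mean log2 signal 15.29) gave 0.96 at D30, under the fold threshold, and 1.26 at D180. DQ-12 and vehicle rats overlapped for Fabp5 at both times. The complement list had 5 of 26 genes called at D30 and 12 at D180. Its significant differences were those of C1s and of the C1 inhibitor Serping1 (0.54 and 1.13, adjusted p = 0.0247), and C3, C4bpa, and C4bpb persisted. In the interferon and antigen presentation list, 1 of 26 genes was called at D30 and 11 at D180, the median moved from 0.33 to 0.95, and no difference was significant (limma), with 7 unadjusted p under 0.05. The guanylate-binding protein Gbp2 had 0.19 and 1.30 (adjusted p = 0.105). Of the acute-phase and plasma protein list, 8 of 27 genes passed at D30 against 13 later, and Orm1 alone had a significant difference. Phagocyte receptors had 5 and 10 of 25 genes called, with no significant difference (limma) and 7 unadjusted p under 0.05. In none of these lists was a called gene lower in DQ-12 rats.

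The lists of structural and epithelial cells differed in direction. The alveolar type 1 list had medians of -0.23 and -0.48, with 6.67% of 15 differences positive, none significant (limma) and 6 with an unadjusted p under 0.05. Endothelial genes had medians of -0.22 and -0.53, with Ednrb, an endothelin receptor, at -0.14 and -1.01 (adjusted p = 0.0684). In the collagen and matrix list, 2 of 39 genes were called at each time, Postn had the only significant difference, and Col1a1, the main fibrillar collagen, had 0.39 and 0.08. The collagen and matrix medians were -0.01 and -0.14. Medians were higher at D180 for the motile cilia list (-0.26 and -0.18) and for the airway secretory and oxidase list (-0.12 and -0.05). The surfactant and alveolar type 2 list had medians of 0.25 and 0.36. The 4 lists of other tissues (muscle, adipose and mesothelium, erythroid and platelet, lymph node and thymus) held no gene with a significant difference (limma) and 2 genes of the adipose and mesothelium list with an unadjusted p under 0.05. The muscle list moved from a median of -0.33 to -0.56 and the erythroid and platelet list from -0.28 to -0.54, values as low as those of the endothelial and alveolar type 1 lists, and their part in the more negative genes was not tested.

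**Figure D5:**
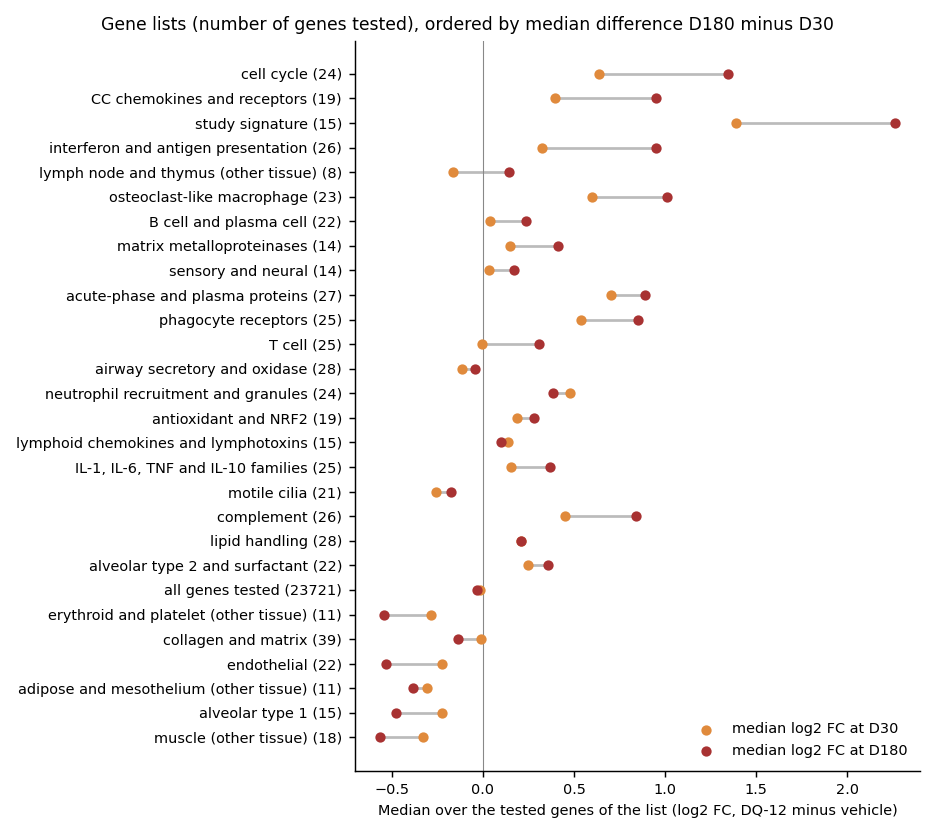
Median log2 FC of DQ-12 against vehicle over the tested genes of each list at D30 and at D180, with the number of genes in parentheses, ordered by the median difference. The cell cycle list moves from 0.64 to 1.35, and all genes tested stay at -0.02 and -0.03.

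The 15 genes that the study selected as predictive were chosen in part on these arrays, at D30 and D180, so that their presence at both times is no independent evidence. Of these, 14 were called at D30 and 15 at D180, 4 persisted (Batf, Fetub, Hp, and Msr1), 1 progressed (Clec2d2l1, listed as LOC689757), and 10 were undetermined. Their median log2 FC was 1.39 at D30 and 2.26 at D180. The gene that missed the threshold at D30 was Capg, an actin-capping protein (0.95 and 1.70, adjusted p of the difference = 0.0774). Marco and Itih1 had no vehicle D30 array well above background and the sodium channel gene Scn10a and Gsg1 had no vehicle D180 array, so their difference has no measured size. Among the other undetermined genes, the interval of the difference ran from 0.21 to 1.53 for the inhibitory Fc receptor Fcgr2b and from 0.42 to 1.99 for the cystine transporter Slc7a11.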

How the data were processed

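Rat lung RNA of 36 rats was hybridized to Agilent single-color arrays, and the authors extracted the data with Agilent Feature Extraction 12.0.1.1 and deposited background-subtracted processed intensities and a table of log2 values. The deposited log2 values were the log2 processed intensity minus the 75th percentile of each array, centered on each probe's median (r = 0.999973 with that computation). Per the study's methods, the authors filtered probes by a quantile, quantile normalized, corrected for batch (variable not named), and used limma, whose FC and adjusted p thresholds were used here.

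From the processed intensities, outlier spots were removed (232 to 596 per array), log2 values of a probe's spots averaged, and probes kept that exceeded the 95th percentile of negative controls on at least 6 arrays (41767 probes). After quantile normalization the brightest probe stood for each of 23721 genes. Group means of all 36 arrays were fitted with limma 3.58.1 (R 4.3.3), with a 2-sided test and Benjamini–Hochberg adjustment over all genes. The number of arrays limits the precision. Scripts were tested on simulated data. Signals are log2 values, and levels were not compared between genes.

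The named genes were all those called in the difference, the 8 persisting genes with the largest mean change, all resolved genes, up to 3 members of each list with a significant difference and up to 2 called at both times, and the 15 genes of the study's signature. Genes given beside them as members of a list were named after their values were seen. The members, the classes, and the lists were chosen with earlier results of these data known. Each array was 1 rat, and a fold against a group without any array well above background is given as a bound from the dimmest probes above background. Slide (19) and scan date (11) were examined as batches. Both treatments shared 3 slides and 2 scan dates at D30, and 1 slide and 2 scan dates at D180. The time points shared no slide and no scan date. Within-scan-date differences were computed for each of the 4 pairs of dates, which was chosen after seeing the data. Alternatives covered intensity, background, normalization, filter, probes, arrays, weights, blocks, thresholds, and leaving out each rat.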

Additional observations from a re-analysis of the deposited data

Results flagged for a closer look

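The effect of DQ-12 differed between D30 and D180 by the limma test for 33 genes. The differences (log2, D180 minus D30) were 4.16 for Orm1, 2.88 for Lpo, 2.59 for LOC100911842, 2.47 for A2ml1, 2.42 for LOC689770, 2.15 for Ubd, 2.13 for LOC689757, and 2.12 for Clec6a-ps1. They were 1.98 for Galnt5, 1.95 for Mt3, 1.86 for Kif22, 1.85 for LOC108352587, 1.84 for Ctsk, 1.75 for Ccl2, 1.70 for Chia, 1.60 for Pla2g7, and 1.53 for LOC689081. Smaller positive values were 1.45 for Il1rn, 1.32 for Kcnn4 and Fam20c, 1.31 for Sapcd2, 1.25 for Dusp2, 1.24 for Il18bp, 1.21 for Olr490, 1.17 for Gjb2, 1.11 for Il4i1, 1.05 for C1s, 1.04 for Ccr1, and 1.01 for Phyhd1. The negative values were -1.01 for Postn, -1.22 for Lrrn3, -1.25 for Fn3k, and -2.03 for Gdf10. The values of Orm1, LOC100911842, A2ml1, Clec6a-ps1, LOC108352587, LOC689081, and Olr490 are fitted values without a measured size, since each of these genes had at least 1 group with no array well above background.

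Single rats stood apart from the other 5 of their group, by Dixon's ratio of the gap to the range at its 95% critical value, in 18 of 316 groups of 6 (5.7%), and chance alone gives about 1 in 20. Of these, 5 were vehicle D30 replicate 3, with ratios of 0.817 for Clec6a-ps1, 0.792 for LOC689081, 0.752 for Marco, and 0.700 for Olr490 (each highest) and 0.684 for Fam20c (lowest). In the other vehicle D30 rats the ratios were 0.845 for A2ml1 and 0.946 for LOC108352587 (replicate 5), 0.663 for Ccl7 (replicate 1, lowest), and 0.727 for Fabp5 (replicate 4). DQ-12 D30 rats gave 0.895 for LOC108352587 (replicate 4), 0.928 for Olr490 (replicate 6), and 0.647 for Gpr84 (replicate 1). Vehicle D180 rats gave 0.704 for A2ml1 (replicate 6), 0.802 for LOC689081 (replicate 3), 0.681 for Serping1 (replicate 2), and 0.699 for Tac1 (replicate 4, lowest). DQ-12 D180 rats gave 0.797 for Fcrl2 (replicate 6) and 0.632 for Postn (replicate 4, lowest). Several of these genes, among them Olr490, LOC689081, LOC108352587, and Clec6a-ps1, had no array well above background in the groups concerned.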

How the results depend on the processing

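The direction of the difference held under every setting for 32 of the 33 genes, and 18 were called whichever rat was left out, but none was called under every alternative. The exception was LOC689081, a gene at background, with -0.28 for median intensity, -0.12 for normexp, and -0.36 for 75th percentile scaling. Against 33 called differences, with 29 progressed, 59 persisted, and 2 resolved genes, the 24 arrays alone gave 0, 0, 56, and 0. Array weights gave 229, 102, 65, and 39. Slide as a fixed block gave 204, 196, 7, and 2, with 66 of the 204 more positive, 138 more negative, and 7 shared with the 33, where 1 slide held both treatments at D180, and scan date as a fixed block gave 14, 13, 37, and 1. A fold threshold of 1.5 gave 57, 53, 245, and 2, and limma's treat test against 1.2-fold gave 8, 8, 95, and 0. Resolved genes numbered 0 with median intensity or normexp and 1 with 75th percentile scaling, deposited log2 values, or slide or scan date as a random block. The causes of these changes were not tested.

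Leaving out 1 rat gave 21 to 82 called differences, 19 to 61 progressed, 40 to 65 persisted, and 1 to 13 resolved genes. Called differences numbered 82 without DQ-12 D30 replicate 5, 67 without vehicle D30 replicate 3 or DQ-12 D180 replicate 3, 55 without vehicle D180 replicate 4, and 21 without vehicle D30 replicate 5, DQ-12 D30 replicate 2 or 6, vehicle D180 replicate 1, or DQ-12 D180 replicate 4. Progressed genes numbered 61 without DQ-12 D180 replicate 3 and 19 without DQ-12 D30 replicate 2, 3, or 6 or DQ-12 D180 replicate 4, and resolved genes 13 without DQ-12 D30 replicate 5. With the replicate number as a block there were 41 called differences, 37 progressed, 57 persisted, and 2 resolved genes. Whether the numbers pair the rats was not settled. The deviations of same-numbered rats correlated above 0.1 in 1 to 3 of 6 pairs. Between vehicle D30 and vehicle D180, 5 of 6 rats correlated best with their own number. Between vehicle and DQ-12 rats this held for 1 at D30 and 3 at D180, and between DQ-12 D30 and DQ-12 D180 for 1.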
